A study of Mus musculus with 4 samples.

Results

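A set of 10 isoform genes of glucose uptake and glycolysis was followed in mouse hearts 1 week after transverse aortic constriction (TAC), in which a band around the aorta puts the left ventricle under pressure overload. They are Slc2a1, Slc2a4, Hk1, Hk2, Pfkm, Pfkp, Pkm, Ldha, Ldhb and Pdk1, out of 19938 genes with a probe set of their own on the array. Each was read from the probe set whose only gene symbol in the array annotation is that gene, and from the probe set with the highest mean over the arrays where several qualified. Heart RNA was profiled on 4 Affymetrix Mouse Gene ST arrays, 1 wildtype (wild type 1) and 3 with MAFbx KO (knockouts 1, 2 and 3), all after TAC. MAFbx, or atrogin-1, is the muscle F-box protein encoded by Fbxo32. The labels give no strain, sex, age or type of knockout allele, and do not say that each number is a separate animal. The p-values thus refer to samples and not necessarily to animals. For limma the spread is that of the 3 knockout samples only, since 1 wild type array gives none. Hearts without TAC were not analysed here, so what TAC itself did to these genes cannot be read from the 4 arrays.

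Glucose enters a cardiomyocyte through facilitative transporters, is trapped by hexokinase, committed to glycolysis by phosphofructokinase and turned into pyruvate by pyruvate kinase. Pyruvate is then reduced to lactate by lactate dehydrogenase or oxidised by the pyruvate dehydrogenase complex, which pyruvate dehydrogenase kinases switch off. The fetal heart relies on glucose and lactate and the adult heart mostly on fatty acids, and pressure overload is known for a partial return toward the fetal isoforms. Slc2a1 (GLUT1) and Hk1 are the forms of the fetal heart and of most tissues, and Slc2a4 (GLUT4, moved to the membrane by insulin) and Hk2 those of adult insulin-sensitive muscle. Pfkm is the muscle and Pfkp the platelet form of phosphofructokinase, and Ldhb is the heart and Ldha the skeletal muscle form of lactate dehydrogenase.

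No member passed the limma test over all genes, and the lowest adjusted p among them was 0.530, for Slc2a1. Slc2a1 read lower on all 3 knockout arrays than on the wild type array, with differences of -0.61 to -0.72 (log2). The muscle or adult forms Slc2a4, Pfkm and Ldhb read higher on all 3 knockout arrays, with mean log2 differences of 0.52, 0.55 and 0.54, but for each of them most of the difference lay in knockouts 1 and 2. Ldha, Pkm and Hk2 differed from the wild type array by -0.23 to 0.14 on the knockout arrays, and the Hk1 value taken by the rule came from a probe set with a doubtful name.

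The arrays had medians between 6.84 and 6.87 (log2) over the 14914 genes tested. Fbxo32 read 7.54 in wild type 1 and 5.65, 5.61 and 5.56 in the knockouts, lower on each as labelled; whether its probe set lies in the deleted part was not analysed here. By the sex-linked transcripts the arrays divided differently from genotype: Xist read 9.18 and 9.52 in knockouts 1 and 2, whereas wild type 1 and knockout 3 read 4.13 and 3.20. Wild type 1 is therefore matched in this respect by knockout 3 alone. The 10 cardiomyocyte markers fixed for the check of the tissue were all measured above the filter on dim genes. Of these 4 (Myh6, Ryr2, Mb and Ckm) lay above and 1 (Actc1, cardiac alpha-actin) below wild type 1 on all 3 knockout arrays. Over all genes tested the shares were 23.9% and 24.6%. The median difference of the 10 markers from wild type 1 was 0.135 in knockout 1, 0.145 in knockout 2 and -0.02 in knockout 3. Markers of skeletal muscle had a log2 summed level of 8.63 in wild type 1 and 8.47 to 8.73 in the knockouts.

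The promoter windows of 3 members are shown because they hold the contrast of the results: Slc2a1, the member with the largest difference shared by all 3 knockout arrays, and the lactate dehydrogenase pair, with mean log2 differences of -0.07 for Ldha and 0.54 for Ldhb. Each is 300 bases of GRCm38.p6 from RefSeq, 250 before to 50 after the annotated start, 5′ to 3′ on the gene's strand. Capitals mark the core of the hypoxia response element, ACGTG or GCGTG on either strand.
Slc2a1 (chr4:119108495-119108794, + strand): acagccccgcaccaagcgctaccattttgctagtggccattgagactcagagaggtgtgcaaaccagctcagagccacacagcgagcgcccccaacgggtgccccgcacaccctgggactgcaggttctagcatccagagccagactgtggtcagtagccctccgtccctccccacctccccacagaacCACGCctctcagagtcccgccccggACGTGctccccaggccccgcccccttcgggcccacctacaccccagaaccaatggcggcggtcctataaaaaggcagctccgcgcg
Ldha (chr7:46845554-46845853, + strand): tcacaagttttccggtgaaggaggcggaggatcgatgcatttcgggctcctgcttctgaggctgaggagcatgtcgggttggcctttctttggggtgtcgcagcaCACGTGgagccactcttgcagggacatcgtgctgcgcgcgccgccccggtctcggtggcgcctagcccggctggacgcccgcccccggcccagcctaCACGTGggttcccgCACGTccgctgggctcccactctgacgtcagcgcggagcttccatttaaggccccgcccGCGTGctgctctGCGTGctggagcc
Ldhb (chr6:142507908-142508207, - strand): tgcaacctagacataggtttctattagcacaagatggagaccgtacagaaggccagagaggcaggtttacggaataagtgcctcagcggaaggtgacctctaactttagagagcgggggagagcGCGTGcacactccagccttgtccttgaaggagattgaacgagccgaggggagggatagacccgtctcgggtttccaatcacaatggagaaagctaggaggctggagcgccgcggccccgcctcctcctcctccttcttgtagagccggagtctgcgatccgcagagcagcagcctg

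The Slc2a1 window held 1 ACGTG and 1 GCGTG. The Ldha window shown held 5 matches to ACGTG and 2 to GCGTG. Its 2 copies of the E-box CACGTG each count as a match on both strands. Another RefSeq window of Ldha, at a different annotated start and not shown, held 2 GCGTG and no ACGTG or CACGTG. The Ldhb window held 1 GCGTG and no ACGTG. Of 32817 RefSeq promoter windows of this length, 19.6% held ACGTG, 32.4% held GCGTG and 7.15% held CACGTG on either strand. RefSeq windows were found for 9 of the 10 members (16 windows), Slc2a4 being the one without. Of these 16, 7 held ACGTG and 9 held GCGTG. The GC box GGGCGG was in 6 of the 16 (35.6% of all windows), and TATAAA in 1, that of Slc2a1 (13.6% of all windows). A match describes the letters only.

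Slc2a1 encodes GLUT1, the transporter of the fetal heart that also supplies basal uptake in endothelial and blood cells. It read 8.74 in wild type 1 and 8.13, 8.02 and 8.08 in knockouts 1, 2 and 3 (log2 level). The 3 knockout arrays lay within 0.11 of each other and all below the lone wild type array. Of all genes tested, 24.6% lay below it on all 3 knockout arrays and 23.9% above. The knockouts averaged 8.08 ± 0.06 (SD, n = 3), which was 1.58-fold below wild type 1. Its log2 fold change was -0.66 (SE 0.17, 95% interval -1.07 to -0.26). By limma the unadjusted p was 0.00620 and the adjusted p 0.530. Among all genes tested 1.15% had a p at least as small. The difference was nearly equal in knockout 3 (-0.66) and in knockouts 1 and 2 (mean -0.67), and between -0.69 and -0.64 when any 1 knockout was left out.

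All 11 macrophage markers were also lower than wild type 1 on each knockout array (24.6% below over all genes tested). Their median log2 fold change was -1.01, and their log2 summed level was 12.65 in wild type 1 and 11.39, 11.62 and 12.14 in the knockouts. None of the 11 was under the filter on dim genes. Of 9 endothelial markers 5 lay above, 0 below and 4 were mixed (23.9% above over all genes tested), with a median of 0.29 and 0 at an unadjusted limma p under 0.05. The part of the macrophage markers in the Slc2a1 value was not tested. In heart RNA, fewer cells of a type and less RNA per cell cannot be told apart.

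Slc2a4 encodes GLUT4, the insulin-responsive transporter of adult heart and skeletal muscle. Its log2 level was 9.49 in wild type 1 and 10.39, 10.04 and 9.61 in the knockouts. Knockout 1 stood highest and knockout 3 lay only 0.12 above the wild type array, although no knockout value reached down to it. The mean difference was 0.52 (SE 0.29, 95% interval -0.17 to 1.22, limma adjusted p = 0.923), 1.44-fold. It fell to 0.335 when knockout 1 was left out and stood at 0.725 without knockout 3.

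**Figure D1:**
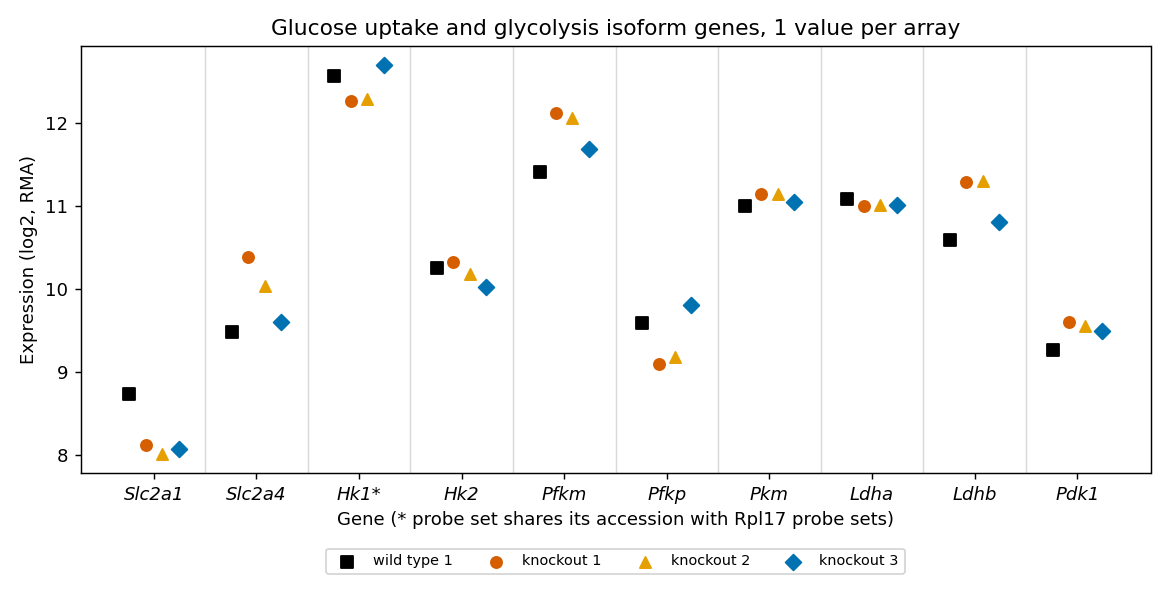
Log2 expression (y axis) of the 10 genes (x axis) on each array, 1 point per array: the wild type array (black square) and 3 MAFbx knockout arrays (coloured). The 3 knockout values of Slc2a1 sit together at 8.02 to 8.13 under the wild type value of 8.74, whereas knockout 3 lies between the wild type array and the other knockouts for Slc2a4, Pfkm and Ldhb; heights of different genes are not comparable.

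Other glucose transporters differed by at most 0.30 (log2) between the knockout mean and wild type 1. Of 6 tested genes in that list, 3 were above and 2 below wild type 1 on all 3 knockout arrays, and 0 passed an unadjusted p under 0.05. The shares over all genes tested were 23.9% above and 24.6% below. Slc2a12 (GLUT12) read 6.59 in wild type 1 and 7.07, 6.92 and 6.67 in the knockouts. It was again highest in knockout 1 and nearest to wild type in knockout 3. Slc5a2, a sodium-coupled glucose transporter, had a log2 fold change of 0.21. Slc2a3 (GLUT3, a high-affinity transporter) read 5.85 against 5.42, 5.70 and 5.66, and Slc2a10 differed by -0.11.

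Hk1 requires a word on its probe set before its values. The rule took probe set 10414661, the one of 2 Hk1 probe sets with the higher mean, which read 12.57 in wild type 1 and 12.27, 12.29 and 12.70 in the knockouts. Its single GenBank accession is listed on 18 probe sets, 16 of which also name Rpl17, a ribosomal protein gene. On all 16 of these, knockouts 1 and 2 lay below both wild type 1 and knockout 3, as on the probe set the rule took. That arrangement also held for 21.5% of all genes tested. The medians of the 16 were -0.34 in knockout 1, -0.30 in knockout 2 and -0.08 in knockout 3, relative to wild type 1. In knockout 3 the probe set of the rule stood at 0.13, above the highest of the 16 (0.01). Which of the 2 genes this probe set measures cannot be told from the annotation, and the 16 are not independent of each other.

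The other Hk1 probe set, 10369541, lists RefSeq transcripts of Hk1 and did not share that pattern. Its log2 level was 9.48 in wild type 1 and 9.47, 9.43 and 9.33 in the knockouts, with a mean of 9.41 ± 0.07 (SD, n = 3). The differences from wild type 1 were -0.01, -0.05 and -0.15, so knockout 3 was lowest. The log2 fold change was -0.07 (SE 0.17, limma adjusted p = 0.996 where every gene was read from a probe set with RefSeq transcripts). For the probe set of the rule it was -0.15 (SE 0.23, limma adjusted p = 0.992).

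**Figure D2:**
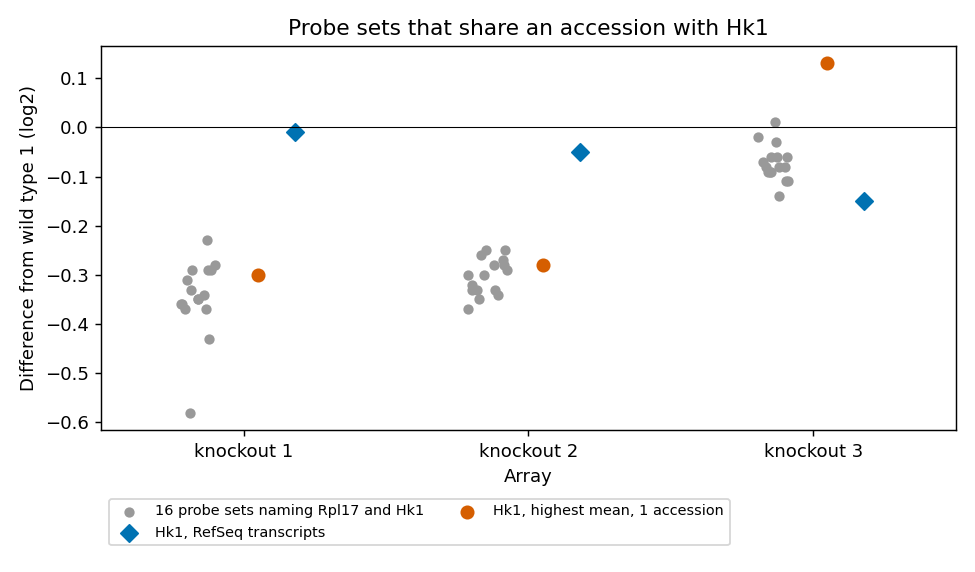
Difference from wild type 1 (log2, y axis) on each knockout array (x axis) for the 16 probe sets that name both Rpl17 and Hk1 (grey), the Hk1 probe set of highest mean (orange circles) and the Hk1 probe set with RefSeq transcripts (blue diamonds). The orange points lie among the grey ones in knockouts 1 and 2 (-0.30 and -0.28), while the blue points lie at -0.01 and -0.05 there.

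Hk2, the hexokinase of insulin-sensitive muscle that binds mitochondria, read 10.26 in wild type 1 and 10.33, 10.18 and 10.03 in the knockouts. The wild type value lay inside the knockout range, so the groups overlapped. The difference was -0.08 (SE 0.19, 95% interval -0.53 to 0.37, limma adjusted p = 0.996), and under renewed quantile normalization it was 0.0075. Among the other hexokinases 2 genes were tested, both dim. Hk3, a form known from myeloid cells, read 5.29 against 4.94, 5.04 and 5.10, and Hkdc1 differed by 0.07.

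Pfkm, the muscle subunit of the enzyme that commits glucose to glycolysis, read 11.41 in wild type 1 and 12.13, 12.06 and 11.69 in the knockouts. All 3 knockout values were above the wild type value, knockouts 1 and 2 by 0.72 and 0.65 and knockout 3 by 0.28. The mean of 11.96 ± 0.24 (SD, n = 3) was 1.46-fold higher. The log2 fold change was 0.55 (SE 0.22, 95% interval 0.02 to 1.08), with an unadjusted limma p of 0.0428 and an adjusted p of 0.838. Of all genes tested, 5.10% had a p at least as small.

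Pfkp, the platelet subunit, read 9.59 in wild type 1 and 9.10, 9.19 and 9.81 in the knockouts. Here knockouts 1 and 2 were below and knockout 3 above the wild type array, so no direction was shared. The difference was -0.22 (SE 0.29, 95% interval -0.91 to 0.47, limma adjusted p = 0.989), -0.445 without knockout 3 and -0.09 without knockout 1. With the Xist level as a covariate, which sets mainly knockout 3 against wild type 1, it was 0.12.

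The summed levels of fibroblast and proliferation markers were also higher in knockout 3 than in knockouts 1 and 2. The same held for macrophage, neutrophil, endothelial, adipocyte and skeletal muscle markers, and not for cardiomyocyte or erythroid markers. The adipocyte sum followed its brightest marker, Fabp4 (10.95, 10.96 and 11.46 in the knockouts). By the median difference from wild type 1, adipocyte markers were instead lowest in knockout 3 (-0.015, against 0.33 and 0.59 in knockouts 1 and 2). Only 2 of the 7 neutrophil markers passed the filter on dim genes. The log2 summed level of the 9 fibroblast markers was 13.76 in wild type 1 and 13.14, 13.58 and 14.34 in the knockouts. The proliferation markers gave 9.64 and 8.16, 8.50 and 9.74. Of 9 fibroblast markers 3 were above and 1 below wild type 1 on each knockout array, and of 6 tested proliferation markers 0 and 1. The shares over all genes tested were 23.9% above and 24.6% below. None of the fibroblast markers was under the filter on dim genes. Their part in the Pfkp value was not tested.

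Among the other phosphofructokinase genes, Pfkfb2 had the largest difference of all the fixed lists of glucose metabolism. It encodes the heart form of the bifunctional enzyme that makes fructose 2,6-bisphosphate, the activator of phosphofructokinase. Its log2 level was 8.17 in wild type 1 and 9.06, 9.52 and 9.01 in the knockouts. All 3 knockout values were at least 0.84 above the wild type value, knockout 3 included, and the log2 fold change was 1.03 (SE 0.24, limma adjusted p = 0.462). Pfkl, the liver subunit, differed from wild type 1 by 0.51, 0.28 and 0.26. The paralogs Pfkfb3 and Pfkfb4 differed by -0.22 and -0.16.

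Pkm encodes the muscle pyruvate kinase, whose M1 and M2 forms arise by alternative splicing and are not separated by a value for the whole gene. It read 11.01 in wild type 1 and 11.15, 11.15 and 11.05 in the knockouts. The knockouts were all above the wild type array, by at most 0.14, and the difference of 0.11 had a 95% interval of -0.30 to 0.51 (limma adjusted p = 0.992). A second Pkm probe set, annotated without RefSeq transcripts, gave 10.24 in wild type 1 and 10.24, 10.29 and 10.31 in the knockouts.

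Ldha, the lactate dehydrogenase subunit that favours lactate formation, was the most even member. It read 11.09 in wild type 1 and 11.01, 11.02 and 11.02 in the knockouts. The differences were -0.08, -0.07 and -0.07, and renewed quantile normalization turned the mean difference of -0.07 to 0.0075. Its 95% interval of -0.47 to 0.33 does not show equal levels.

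Ldhb, the heart subunit that favours lactate use, read 10.60 in wild type 1 and 11.30, 11.31 and 10.81 in the knockouts. Knockouts 1 and 2 lay about 0.70 above the wild type array and knockout 3 lay 0.21 above it. The log2 fold change was 0.54 (SE 0.24, 95% interval -0.04 to 1.12, limma adjusted p = 0.880). On the second Ldhb probe set knockout 3 was level with the wild type array. There the values were 10.43 in wild type 1 and 11.19, 11.04 and 10.41 in the knockouts, with a mean difference of 0.45.

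Pdk1, a kinase that inactivates pyruvate dehydrogenase and a known target of hypoxia signalling, read 9.27 in wild type 1 and 9.61, 9.56 and 9.50 in the knockouts. The knockouts lay within 0.11 of each other and all above the wild type array. The difference was 0.29 (SE 0.17, 95% interval -0.12 to 0.69, limma adjusted p = 0.923), 1.22-fold. With Slc2a1 it was the member whose difference in knockout 3 (0.23) came closest to that of knockouts 1 and 2 (mean 0.315), among those that differed by over 0.2.

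**Figure D3:**
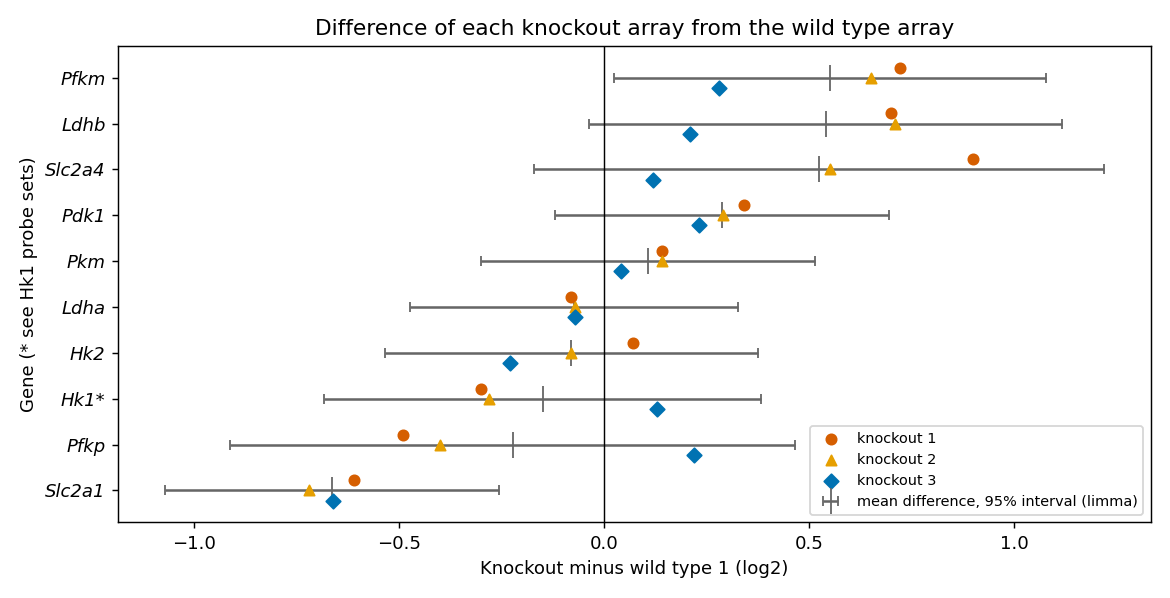
Difference of each knockout array from wild type 1 (log2, x axis; coloured points) for the 10 genes (y axis), with the mean difference and its 95% interval from limma (grey bar). The intervals of Slc2a1 (-1.07 to -0.26) and Pfkm (0.02 to 1.08) leave out 0, and no gene passed the adjusted threshold; the asterisk marks the Hk1 probe set with a doubtful name.

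Counted over the 10 members, 5 were above wild type 1 on all 3 knockout arrays (Slc2a4, Pfkm, Pkm, Ldhb and Pdk1), 2 below (Slc2a1 and Ldha) and 3 were mixed. Over all genes tested 23.9% lay above and 24.6% below. At an adjusted limma p under 0.05 there were 0 members, against 0.00671% of all genes (1 gene). At an unadjusted p under 0.05 there were 2 members, against 5.73% of all genes tested. Of the 2, there was 1 lower (Slc2a1), where the share over all genes was 4.05%, and 1 higher (Pfkm), where it was 1.68%. The median log2 fold change was 0.02 for the members and 0.00 over all genes tested. Read from probe sets with RefSeq transcripts, Hk1 was also below wild type 1 on all 3 knockout arrays. On their second probe sets Ldhb and Pkm were mixed. Knockout 3 stood at -0.02 there for Ldhb, and knockout 1 was level with wild type 1 for Pkm.

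In 5 of the 10 members (Slc2a4, Pfkm, Pkm, Ldhb and Pdk1) knockouts 1 and 2 both stood above wild type 1 and knockout 3, and in 2 (Pfkp and the Hk1 probe set of the rule) both stood below. Over all genes tested this arrangement held for 22.5% and 21.5%. It is the arrangement of the Xist levels, and what share of these differences goes with genotype cannot be told apart from it with 1 wild type array. With the Xist level as a covariate the log2 fold change was 0.22 for Slc2a4, 0.29 for Ldhb, 0.34 for Pfkm and -0.66 for Slc2a1. As Xist was high in knockouts 1 and 2 alone, these values rest mainly on knockout 3 against wild type 1. The differences between those 2 arrays were 0.12, 0.21, 0.28 and -0.66 in the same order of genes.

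Isoform balance was followed as the log2 difference between 2 forms on the same array, with the form of the adult heart or of muscle subtracted from the other; for lactate dehydrogenase the heart form Ldhb was subtracted from Ldha. Levels of different probe sets cannot be compared, so only the change of this difference between arrays is read, and it shows unequal change, not which of the 2 genes moved. With 1 array against 3, the smallest p an exact permutation test can reach is 0.25.

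Slc2a1 minus Slc2a4 was -0.75 in wild type 1 and -2.26, -2.02 and -1.53 in the knockouts. It was thus lower on every knockout array, with changes of -1.51 and -1.27 in knockouts 1 and 2 and -0.78 in knockout 3. The mean change was -1.19 (knockout SD 0.37, n = 3, two-sided exact permutation p = 0.25).

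Pfkp minus Pfkm was -1.82 in wild type 1 and -3.03, -2.87 and -1.88 in the knockouts. Knockout 3 differed from wild type 1 by only -0.06, and the mean change was -0.77 (knockout SD 0.62, n = 3, two-sided exact permutation p = 0.5). Ldha minus Ldhb was 0.49 in wild type 1 and -0.29, -0.29 and 0.21 in the knockouts, a mean change of -0.61 (knockout SD 0.29, n = 3, two-sided exact permutation p = 0.25). Read with the second Ldhb probe set the change was -0.52, and -0.05 in knockout 3.

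Hk1 minus Hk2 did not change in a shared direction. With the probe set of the rule it was 2.31 in wild type 1 and 1.94, 2.11 and 2.67 in the knockouts. With the RefSeq probe set of Hk1 it was -0.78 and -0.86, -0.75 and -0.70, and the mean change was 0.01 (two-sided exact permutation p = 1). In 3 of the 4 pairs, then, every knockout array was lower than the lone wild type array. Among single genes tested 24.6% lay below it on all 3 knockout arrays, and no share over other pairs was computed. In knockout 3 the change was -0.06 for phosphofructokinase and -0.78 for the transporters. For lactate dehydrogenase it was -0.28 there, or -0.05 with the second Ldhb probe set.

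**Figure D4:**
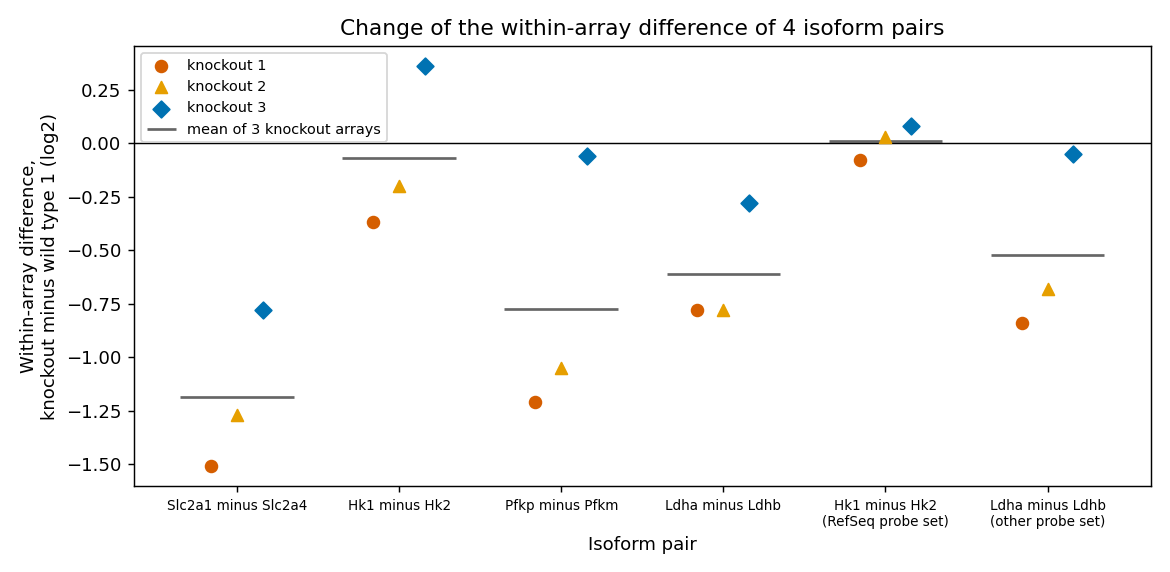
Change of the within-array difference of each isoform pair (log2, y axis) on each knockout array relative to wild type 1, with the mean of the 3 knockout arrays (grey line); the last 2 columns repeat a pair with another probe set. All 3 knockout points of Slc2a1 minus Slc2a4 lie below 0 (-1.51, -1.27 and -0.78), whereas knockout 3 lies at -0.06 for Pfkp minus Pfkm.

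The rest of the pathway was described through 8 fixed lists with 71 genes, of which 62 were tested. Of these 24 lay above wild type 1 on all 3 knockout arrays and 19 below (38.7% and 30.6%, against 23.9% and 24.6% of all genes tested). None passed the adjusted limma threshold, and at an unadjusted p under 0.05 there were 2 higher (Pfkfb2 and Ppp1r3c) and 2 lower (Slc16a3 and Pgd). At that unadjusted limma p, 1.68% of all genes tested were higher and 4.05% lower. The median log2 fold change of the 62 genes was 0.09.

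Among 10 tested genes of other steps of glycolysis, 4 lay above (Aldoa, Tpi1, Pgam2 and Eno3) and 3 below (Aldoc, Pgam1 and Eno2). The shares over all genes tested were 23.9% and 24.6%. Eno3, muscle enolase, read 11.60 in wild type 1 and 11.98, 12.14 and 11.74 in the knockouts, and Pgam2, muscle phosphoglycerate mutase, differed by 0.40, 0.32 and 0.17 on the knockout arrays. Pgam1, the mutase of non-muscle tissues, read 9.47 and 9.13, 9.04 and 9.10, with all 3 knockouts below wild type 1 (log2 fold change -0.38, SE 0.17, limma adjusted p = 0.880). Aldoc, the brain aldolase, differed by -0.40. Gapdh, Eno1 and Gpi1 had no probe set that names them alone.

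In the handling of lactate and pyruvate, Slc16a3 (MCT4, a transporter that exports lactate) was lower on every knockout array. Its log2 level was 7.76 in wild type 1 and 6.91, 6.57 and 7.27 in the knockouts. The difference of -0.84 (SE 0.27) had a limma adjusted p of 0.675. Slc16a1 (MCT1) differed by -0.16, and Bsg, the chaperone of both transporters, by 0.27. The macrophage markers described above moved the same way as Slc16a3, and their part in it was not tested.

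The pyruvate dehydrogenase list had 7 of 11 tested genes above and 1 below wild type 1 on all 3 knockout arrays. Over all genes tested the shares were 23.9% and 24.6%. The median log2 fold change of the list was 0.21. None of the 11 passed an unadjusted limma p under 0.05. Pdhx, the E3-binding subunit, read 8.84 in wild type 1 and 9.21, 9.47 and 9.15 in the knockouts. Pdk2, a kinase of adult heart, read 10.79 and 11.42, 11.04 and 10.92, and Pdk3 read 6.69 and 5.91, 6.48 and 6.55. The median of the list was 0.29 and 0.32 in knockouts 1 and 2 and 0.04 in knockout 3.

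Of 14 glycogen genes 5 lay above and 3 below, which is 35.7% and 21.4%, against 23.9% and 24.6% of all genes tested. Ppp1r3c, which targets protein phosphatase 1 to glycogen, read 7.96 in wild type 1 and 8.74, 8.73 and 8.44 in the knockouts (log2 fold change 0.68, SE 0.20, limma adjusted p = 0.592). Phka1, a subunit of phosphorylase kinase of muscle, differed by 0.55, Stbd1 by -0.33 and Pygl, the liver phosphorylase, by -0.22.

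Of 9 tested pentose phosphate and hexosamine genes 1 lay above and 5 below (23.9% and 24.6% over all genes tested), with a median of -0.13. At an unadjusted limma p under 0.05 there was 1 lower (4.05% over all genes tested), and none passed the adjusted threshold. Pgd, the second dehydrogenase of the pentose pathway, read 8.68 in wild type 1 and 7.98, 8.29 and 8.24 in the knockouts (log2 fold change -0.51, SE 0.20, limma adjusted p = 0.816). Tkt, transketolase, differed by -0.36, and Ogt, which attaches the sugar made by the hexosamine route to proteins, by 0.27.

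**Figure D5:**
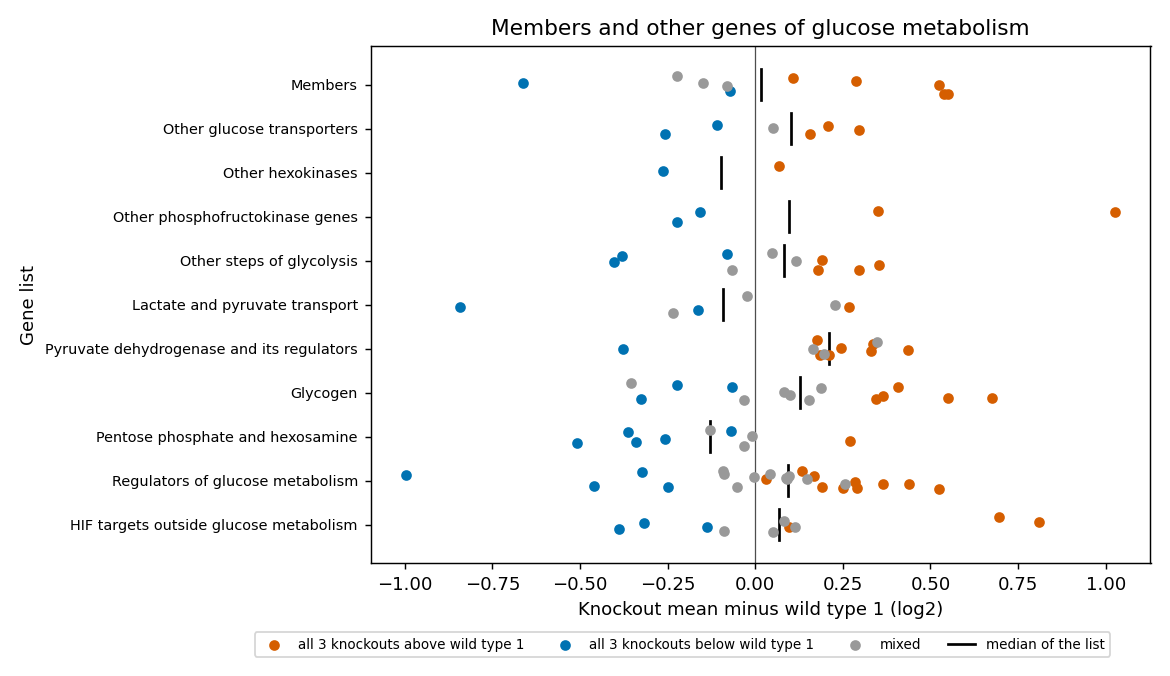
Knockout mean minus wild type 1 (log2, x axis) for each tested gene of the members and of 10 fixed lists (y axis); orange, all 3 knockouts above wild type 1; blue, all 3 below; grey, mixed; black line, list median. Pfkfb2 at 1.03 and Slc16a3 at -0.84 are the outermost genes of the enzyme and transporter lists, and the list medians lie between -0.13 and 0.21.

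Regulators of glucose metabolism were listed as well, and 10 of 24 lay above and 4 below (23.9% and 24.6% over all genes tested). Hif1a, the oxygen-regulated subunit of the hypoxia factor, read 9.26 in wild type 1 and 8.62, 8.66 and 9.12 in the knockouts (log2 fold change -0.46, SE 0.24, limma adjusted p = 0.923). Myc, a factor known to raise glycolytic genes, differed by -1.08, -1.03 and -0.88 on the knockout arrays (limma adjusted p = 0.333). Klf15, a factor that drives Slc2a4 in muscle, read 8.04 and 8.89, 8.48 and 8.07, level with wild type in knockout 3.

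Targets of the hypoxia factor outside glucose metabolism were divided, with 3 of 10 above and 3 below (23.9% and 24.6% over all genes tested). Ddit4 and Bnip3 differed by 0.81 and 0.70, and P4ha1 and Ero1a by -0.39 and -0.32.

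The profiles nearest to each member that ranged over at least 0.5 (log2) were found by Euclidean distance over the 4 arrays after centring each gene. With 4 arrays many genes lie close, and the distances are a description only. Nearest to Slc2a1 were Ccdc25 (distance 0.035) and Mmp19 (0.042). Nearest to Slc2a4 were Akap1 (0.049) and Acads (0.055), and to Pfkm Cmya5 (0.050) and Mapk1ip1 (0.067). Nearest to Pfkp were Mcam (0.0087) and Cmtm3 (0.046), and to Ldhb Retn (0.042) and Ctsf (0.046).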

How the data were processed

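Total heart RNA was read on 4 Affymetrix Mouse Gene ST arrays. Per the submitters' processing notes the authors used Affymetrix Expression Console and RMA, and the deposited numbers are log2 values per probe set. Software versions and the genome build were not given in the sources used here. The RMA method equalises the distributions of the arrays, which removes a change shared by most genes. Of 35556 probe sets 21789 had 1 gene symbol in the platform annotation. Each gene was read from its probe set of highest 4-array mean, and genes with a mean under the 25th percentile of named probe sets (4.71) were left out, leaving 14914; all 10 members passed. The fit used lmFit and eBayes of limma 3.58.1 under R 4.3.3 (knockout against wild type, two-sided, Benjamini-Hochberg over all genes tested, threshold 0.05), with 2 residual and 5.04 prior degrees of freedom. The lone wild type array is assumed to vary like the knockouts, and the number of arrays limits the precision. The fit was tested on simulated data. The members, lists and tests were chosen with earlier results of these data known. All members are named. Of every other list the genes named are up to 2 with the largest rise and up to 2 with the largest fall whose 3 knockout arrays lie on 1 side; not all of these are printed. Log2 fold changes are knockout minus wild type. Alternatives were other normalization, filters, probe set rules, variance models, the Xist level as covariate and leaving out each knockout. The probe sets with RefSeq transcripts, and the percentile over all probe sets, were added after seeing the data.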

Additional observations from a re-analysis of the deposited data

How the results depend on the processing

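Of 130 member values under 13 alternatives, 126 kept their direction and stayed short of the threshold, with 0.357 as the lowest limma adjusted p. Many of the 130 could not turn. The filter and variance-model alternatives keep the same expression values, so only the standard errors and p-values could move. The probe set rules could change only Hk1, Ldhb and Pkm, the members with several probe sets. The 4 that turned were Hk2 and Ldha under renewed quantile normalization (both 0.0075) and, with the Xist level as a covariate, Hk1 (0.066) and Pfkp (0.12). That covariate also moved Slc2a4 from 0.52 to 0.22, Ldhb from 0.54 to 0.29 and Pfkm from 0.55 to 0.34, and left Slc2a1 at -0.66. As Xist was high in knockouts 1 and 2 alone, the values with this covariate rest mainly on knockout 3 against wild type 1. The change of Hk1 minus Hk2 turned to 0.01 with the RefSeq probe set and ran from -0.285 to 0.08 when 1 knockout was left out. The count of members below the wild type array was 1 under renewed quantile normalization and 2 to 4 with 1 knockout left out. Over all genes the limma call count of 1 became 0 under renewed quantile normalization, 0 without a filter, 2 with the 50th percentile, 7 with trend, 9 with robust eBayes, 23 with the Xist covariate, 11 at an adjusted p under 0.1, and 0 with any 1 knockout left out; 855 genes had an unadjusted p under 0.05 in the comparison as reported. The cause of these shifts was not tested. No paired analysis was possible because the groups share 1 replicate number. Dim genes are compressed by RMA, and a single wild type array gives no wild type spread.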
